A study of Mus musculus with 72 samples.

Results

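Lung tumours were set against lung tissue in mice that had received the CMV-GE11-siRE circuit. The comparison used 4 tumour and 4 lung libraries of RNA sequencing, 8 of the 72 libraries of a series that covers 6 tissues and 3 injected circuits. All mice carried the EGFR DEL19 transgene, a human EGFR gene with an activating deletion, and had been given doxycycline for 25 days. The circuit was injected intravenously at 10 mg/kg every 2 days, 7 times in all, and tissue was taken on day 14. CMV-GE11-siRE is a DNA circuit under the CMV promoter that encodes siRE, an siRNA against EGFR, together with GE11, a peptide that binds EGFR. CMV-siRE lacks the peptide and CMV-scrR carries a scrambled RNA in place of siRE, and both enter only the comparison of circuits near the end. The labels do not say what drives the transgene, how tumour was separated from lung, which strain was used, or whether tumour and lung came from the same animals, and the lung libraries may hold cells that carry the transgene.

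The lung alveolus is lined by flat type 1 cells, which exchange gas, and cuboidal type 2 cells, which secrete surfactant and renew both types. EGFR and its relatives ErbB2 and ErbB3 are receptor tyrosine kinases that answer to ligands such as amphiregulin and epiregulin and signal through the MAPK cascade. Lung adenocarcinomas driven by mutant EGFR commonly keep features of type 2 cells, including the lineage factor NKX2-1.

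The deposited values are normalized and each tissue has a table of its own. Each library was therefore rescaled to CPM (the value a gene would have if the library summed to 1 M) over mouse genes outside the mitochondrial genome, and log2(CPM + 0.5) was compared with limma. A gene is said to have risen or fallen in tumour where its Benjamini-Hochberg adjusted p over all 14989 genes tested was under 0.05. Differences are tumour minus lung on this log2 scale, with the standard error (SE) of the fit and n = 4 each. Whether the 4 libraries of a group came from separate animals is not labelled, and the p-values cover the spread between these samples, which may be technical. Tumour and lung values came from separate tables, and a difference between the tissues and one between the tables cannot be told apart. In bulk tissue, fewer cells of a type and less RNA per cell cannot be told apart either.

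Several measures of the libraries differed between the groups. The approximate depth was 17.1 to 19.6 M reads in tumours, against 19.6 to 20.5 M in lungs. Outside the mitochondrial genome it was 10.6 to 17.5 M in tumours, against 19.1 to 20 M in lungs. Genes of the mitochondrial genome took 8.04%, 37.9%, 17.5% and 19% of the tumour totals, against 2.05%, 2.79%, 2.26% and 2.65% of the lung totals. The mean share was 18.2 percentage points higher in tumour (two-sided exact permutation test, p = 0.0286, the smallest that 4 against 4 libraries can give). Tumour replicate 2 stood apart through Y-linked transcripts, with 71.8 CPM of Ddx3y, against 0.0674 to 1.36 CPM in the other tumours and at most 0.865 CPM in the lungs. Heart-muscle Myh6 stood at 325 CPM in lung replicate 3 and at or under 0.713 CPM in the other lungs, against 64.8 to 164 CPM in tumours. Of 9 heart and skeletal muscle genes tested, Myh6 was the 1 that rose, 2 fell and 6 did not pass. Over all genes, 23.5% rose and 37.2% fell. Multigene loci also differed between these tumours and lungs. The class I-like gene H2-T23 had 5.2 to 9.45 CPM in tumours, against 381 to 484 CPM in lungs. The natural killer receptor gene Klra8 was listed at 0 in all 12 tumour libraries of the series, and the H2-Ea-ps pseudogene had 19 to 37.3 CPM in these tumours and was listed at 0 in the lungs. Such loci also varied among the 12 tumours, from 0.345 to 156 CPM for H2-T23 and 0.756 to 253 CPM for H2-Ea-ps. The related H2-T22 had 1.5 to 208 CPM in the 12 tumours, which overlapped the 168 to 309 CPM of the 12 lungs.

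**Figure D1:**
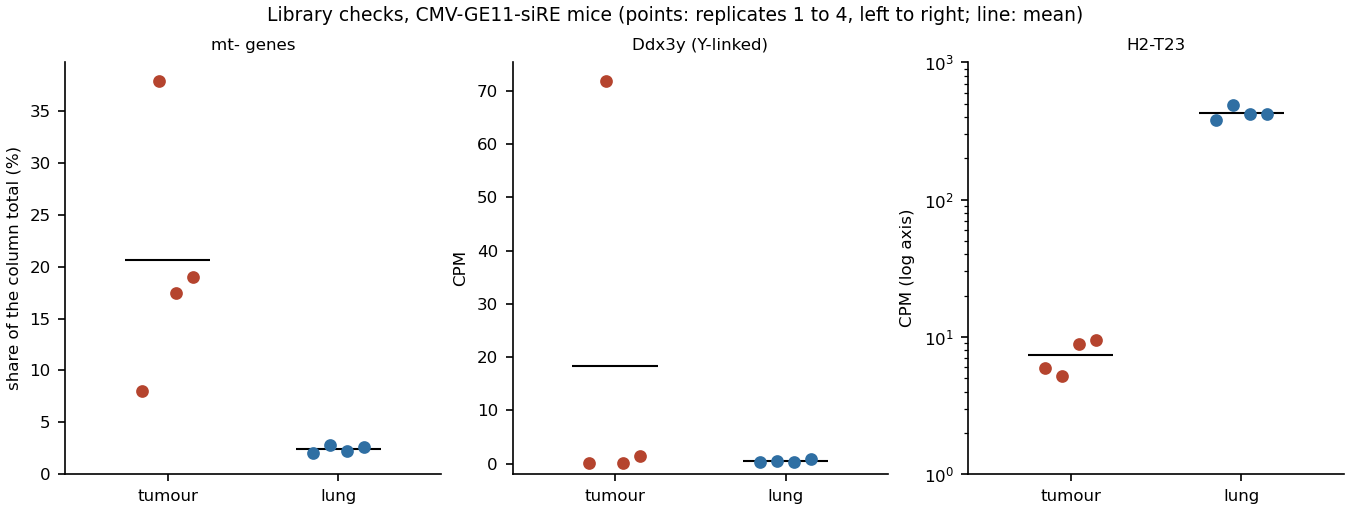
Mitochondrial share of the column total (%), Ddx3y (CPM) and H2-T23 (CPM, log axis) in each CMV-GE11-siRE library; points are replicates 1 to 4 from left to right and lines are means. The tumour shares lie between 8.04% and 37.9% and the lung shares between 2.05% and 2.79%, Ddx3y is high in tumour replicate 2 alone, and H2-T23 is at or under 9.45 CPM in every tumour.

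Some near-identical copies of a gene differed between tumours and lungs in opposite directions. The part of read assignment in this was not tested. The ribosomal protein gene Rps2 had 2.93 to 7.35 CPM in tumours, against 507 to 624 CPM in lungs, while its pseudogene Rps2-ps10 had 571 to 934 CPM in tumours, against 0.394 to 1.35 CPM in lungs. Their sum was 574 to 942 CPM in tumours, against 508 to 625 CPM in lungs. Hmga1 and Hmga1b, genes of chromatin proteins, together had 34.4 to 57.8 CPM in tumours, against 44.4 to 68.3 CPM in lungs, although Hmga1b alone differed by 5.81 ± 0.27. Of the genes tested, 872 shared at least 50% of their transcript with another gene at 97% identity or more, and their differences are uncertain.

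Across all genes, 60.7% passed the test, 3521 higher and 5570 lower in tumour (23.5% and 37.2% of those tested), and without tumour replicate 2 the counts were 3334 higher and 5244 lower. The median difference over all genes was -0.18, and the balance moved with the scaling. With the mitochondrial genes in the total the counts were 1715 higher and 6669 lower of 14834 genes tested, with a median of -0.48. List counts given below under each scaling are to be read beside its counts over all genes. Median-of-ratios scaling gave 4407 higher and 4803 lower, with a median of -0.03.

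**Figure D2:**
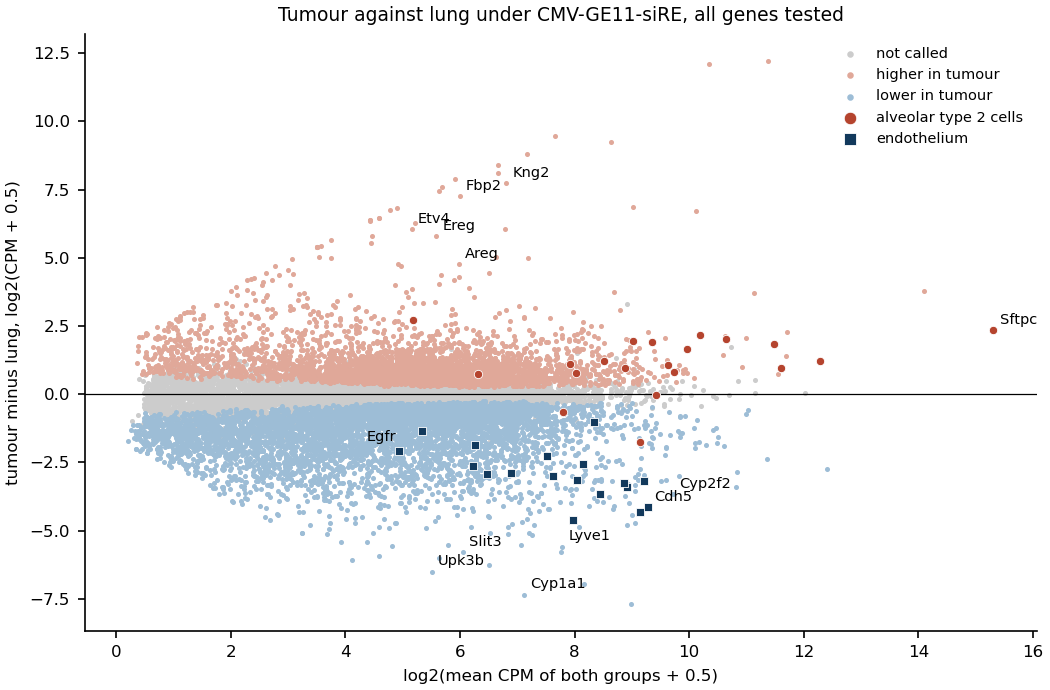
Difference between tumour and lung on the log2(CPM + 0.5) scale against the log2 mean CPM for every gene tested under CMV-GE11-siRE; pale red and pale blue points rose and fell in tumour, grey points did not pass, and the larger points are the alveolar type 2 (red circles) and endothelial (dark blue squares) lists. The type 2 genes lie mostly above 0, among them Sftpc at 2.34, and all 18 endothelial genes lie below it.

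The start regions of 3 genes that rose are printed because each holds matches to searched motifs: Sftpb, which encodes surfactant protein B, Areg, which encodes the EGFR ligand amphiregulin, and Fbp2, a fructose bisphosphatase gene with one of the largest differences. They are the 250 bases before each start in RefSeq on build GRCm38.p6, read 5′ to 3′ on the gene's strand, at chr6:72304360-72304609 (plus strand), chr5:91139349-91139598 (plus strand) and chr13:62858401-62858650 (minus strand) in that order. Capitals mark matches on either strand: in Sftpb and Fbp2 an NKX2-1 core (CNCTCAAG) and, nearer the start, an AP-1 motif (TGANTCA), and in Areg a cyclic AMP response element (TGACGTCA) and a TATA motif (TATAAA).
Sftpb: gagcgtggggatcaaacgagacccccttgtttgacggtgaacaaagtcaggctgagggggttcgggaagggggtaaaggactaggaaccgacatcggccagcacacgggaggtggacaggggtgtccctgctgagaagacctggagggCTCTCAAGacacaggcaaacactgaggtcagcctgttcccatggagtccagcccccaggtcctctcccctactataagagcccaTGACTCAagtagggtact
Areg: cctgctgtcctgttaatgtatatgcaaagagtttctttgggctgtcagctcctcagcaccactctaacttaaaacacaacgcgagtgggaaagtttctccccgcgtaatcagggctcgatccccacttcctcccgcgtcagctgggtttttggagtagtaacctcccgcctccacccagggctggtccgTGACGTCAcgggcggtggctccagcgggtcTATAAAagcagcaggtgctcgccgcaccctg
Fbp2: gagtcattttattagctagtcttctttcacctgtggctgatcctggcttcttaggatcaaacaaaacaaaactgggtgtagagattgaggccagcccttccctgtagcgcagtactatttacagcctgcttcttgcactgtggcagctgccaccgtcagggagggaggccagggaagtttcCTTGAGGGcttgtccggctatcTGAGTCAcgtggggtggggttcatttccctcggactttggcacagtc
The motifs did not overlap in these sequences. Among 27018 genes with such a sequence, 6.87% held the AP-1 motif, 3.56% the NKX2-1 core, 1.62% the cyclic AMP element and 13% the TATA motif. Of the 13 type 2 genes that rose and had a sequence, 2 held the NKX2-1 core, 5 the TATA motif and 1 the AP-1 motif. None of the 13 held the cyclic AMP element. An ETS motif (CCGGAAG) was also searched, and 7.05% of all genes and 0 of the 13 held it. The AP-1 and ETS motifs were in 0 of 7 MAPK feedback and ETS genes and 0 of 4 ErbB genes that rose and had a sequence. A match of letters is not a measured binding site.

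Genes of alveolar type 2 cells rose in tumour. Of 20 tested, 17 rose, 1 fell and 2 missed the threshold, where 23.5% of all genes rose; the median was 1.16. Sftpc, which encodes surfactant protein C, had 83290, 61188, 50967 and 75622 CPM in tumours, against 12837, 13564, 10084 and 17002 CPM in lungs. Every tumour lay above every lung, and the difference was 2.34 ± 0.69 (adjusted p = 0.0129, or 0.419 with no filter on low values). The summed level of the list was 116864, 91661, 78772 and 99072 CPM in tumours, against 24306, 25083, 19867 and 32735 CPM in lungs. Sftpa1, the surfactant protein A gene, had 6398 to 8026 CPM in tumours, against 2285 to 4182 CPM in lungs, and its adjusted p of 0.00391 was 0.0678 with no filter. The phosphate transporter gene Slc34a2 and the lung chemokine gene Cxcl15 rose by 0.96 ± 0.26 and 1.84 ± 0.29. Sftpb, chosen after its values were seen, had 2399, 1726, 1906 and 1602 CPM in tumours, against 426, 397, 366 and 512 CPM in lungs. With the mitochondrial genes in the total, 13 type 2 genes rose and 2 fell, where 1715 of 14834 genes rose and 6669 fell. On that scale Slc34a2 did not pass (adjusted p = 0.0805), nor did it with no filter (0.0652).

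Nkx2-1, the transcription factor that specifies lung epithelium, had 889, 1007, 1201 and 1035 CPM in tumours, against 297, 260.3, 250.5 and 294 CPM in lungs. The groups did not overlap, and the difference was 1.90 ± 0.14 (adjusted p = 1.41e-06). Of the 9 genes tested among lung lineage factors and gut genes, 4 rose, 1 fell and 4 did not pass. Over all genes, 23.5% rose. Foxa2, an endoderm factor gene, rose by 0.92 ± 0.18. Sox9, a factor gene of the distal lung bud named after its values were seen, had 4.07 to 6.69 CPM in tumours, against 0.682 to 1.35 CPM in lungs. Sox2, a factor gene of the conducting airway, fell by 1.6 ± 0.49 on the log2 scale.

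Type 1 genes were divided. Of 18 tested, 4 rose, 10 fell and 4 missed the threshold, where 23.5% of all genes rose and 37.2% fell. The median was -0.80. With the mitochondrial genes in the total, 1 rose and 10 fell, where 1715 of 14834 genes rose and 6669 fell. The junction gene Cldn18, which type 2 cells also express, rose by 0.79 ± 0.19 and did not pass with the mitochondrial genes in the total (adjusted p = 0.11). The water channel gene Aqp5 rose by 1.75 ± 0.13. Emp2, a membrane protein gene of type 1 cells, had 558 to 842 CPM in tumours, against 1148 to 1386 CPM in lungs. The chloride channel gene Clic5 had 339 to 445 CPM in tumours, against 838 to 1099 CPM in lungs, and the podoplanin gene Pdpn fell by 1.45 ± 0.22 on the log2 scale.

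Genes of the transitional alveolar state, which appears as type 2 cells turn into type 1 cells after injury, mostly rose. Of 16 tested, 11 rose and 1 fell, where 23.5% of all genes rose and 37.2% fell. The median was 1.05. The keratin gene Krt8 had 756, 432, 562 and 544 CPM in tumours, against 161, 123, 128 and 208 CPM in lungs. All tumours lay above all lungs. Its partner keratin gene Krt18 rose by 2.65 ± 0.17, Krt7 by 1.11 ± 0.18 and the secreted chaperone gene Clu by 1.58 ± 0.28. Of 19 genes of epithelial and mesenchymal state, 8 rose, 9 fell and 2 did not pass, and its epithelial adhesion genes were divided. The adhesion gene Epcam had 148 to 211 CPM in tumours, against 43.7 to 67.2 CPM in lungs, the tight junction gene Cldn3 had 305 to 464 CPM in tumours, against 75.6 to 111 CPM in lungs, and Cldn4, from the transitional list, rose by 2.85 ± 0.31. The junction scaffold gene Tjp1 fell by 1.14 ± 0.18 and the junction gene Ocln by 0.70 ± 0.20 on the log2 scale, and the cadherin gene Cdh1 did not pass (0.24 ± 0.14). Epcam, Cldn4, Ocln and Cdh1 were named after their values were seen. The mucin gene Muc1 rose by 1.96 ± 0.15.

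Conducting airway genes fell more often than the 37.2% of all genes that did. For club cells, the secretory cells of the small airway, 10 of 12 genes tested fell and none rose, with a median of -2.55, or -1.80 without tumour replicate 2. Scgb1a1, the club cell secretory protein gene, had 2752, 160.5, 2912 and 2261 CPM in tumours, against 8038, 8712, 8087 and 10602 CPM in lungs. Tumour replicate 2 was the lowest, and the difference was -2.75 ± 0.80 (adjusted p = 0.0118). Cyp2f2, a club cell cytochrome P450 gene, had 166, 55.8, 162 and 136 CPM in tumours, against 1568, 1223, 1889 and 1512 CPM in lungs. Cbr2, a carbonyl reductase gene, and Hp, the haptoglobin gene, fell by 1.87 ± 0.25 and 1.72 ± 0.32 on the log2 scale. Of 15 ciliated cell genes 13 fell, with a median of -1.33. When all 24 libraries of both tables entered the fit 5 fell, near the 30.1% of all genes that then fell. Foxj1, the regulator of motile cilia, had 17.2, 10.1, 25.7 and 21.3 CPM in tumours, against 79.9, 54.8, 116 and 57.9 CPM in lungs. The cilium genes Tppp3 and Hydin fell by 1.33 ± 0.16 and 2.34 ± 0.29 on the log2 scale.

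**Figure D3:**
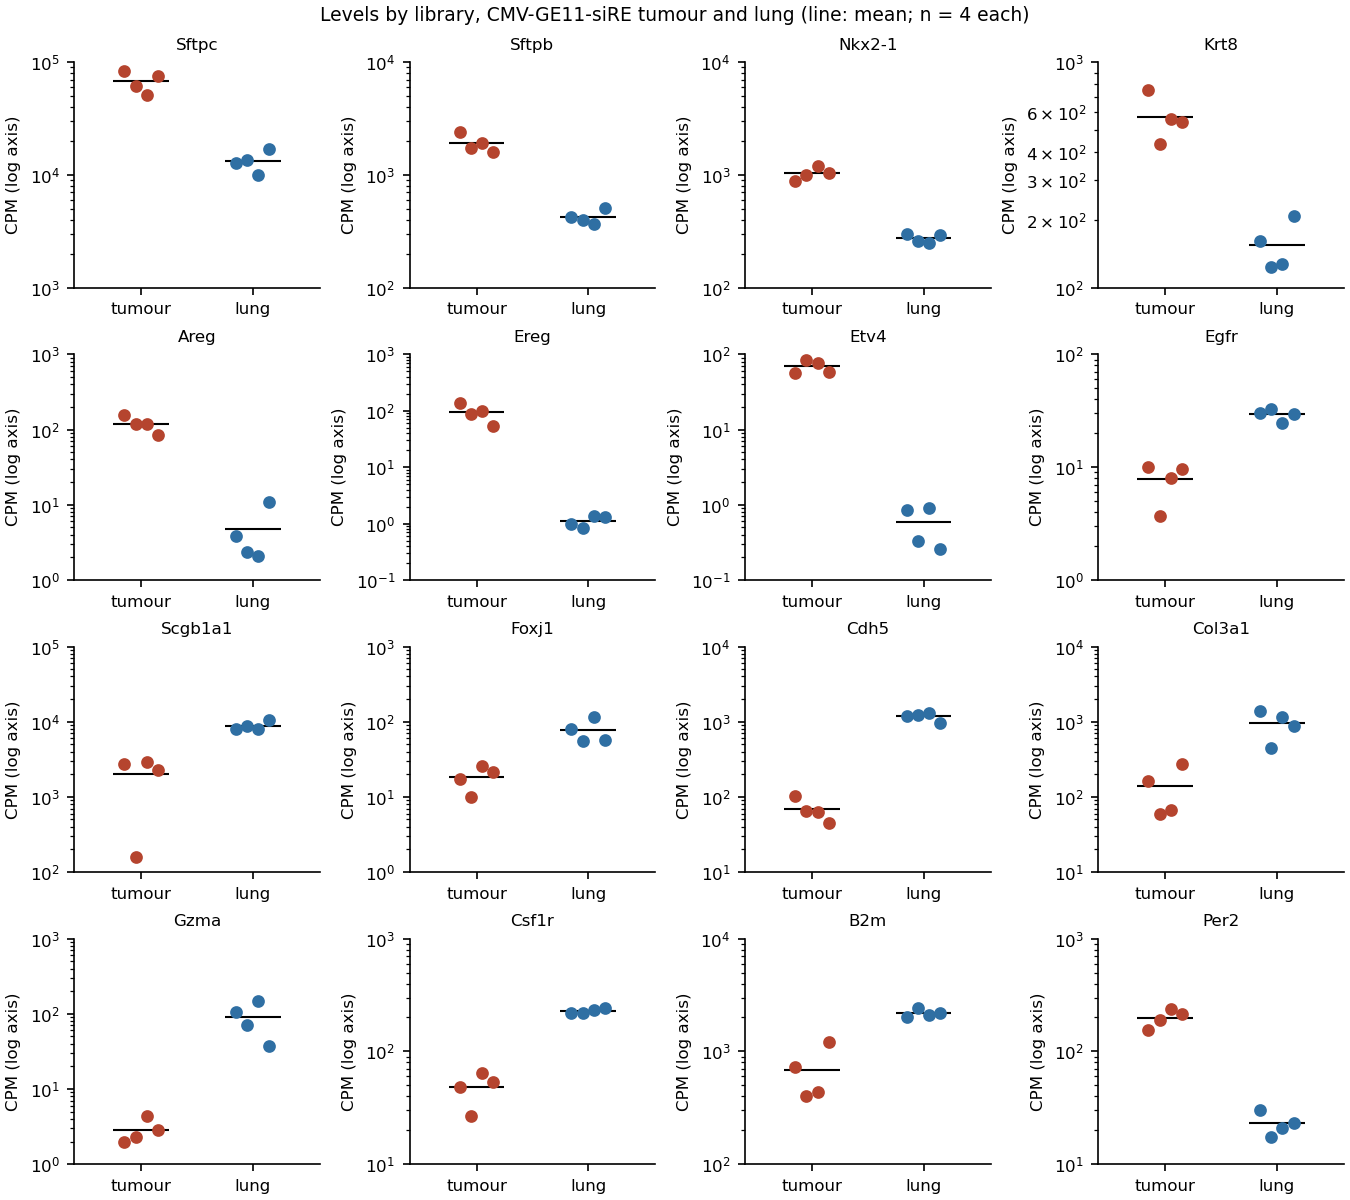
CPM (log axis) of 16 genes in each CMV-GE11-siRE library; points are replicates 1 to 4 from left to right and lines are means of 4 libraries. Sftpc, Nkx2-1, Krt8, Areg, Ereg, Etv4 and Per2 are higher in all tumours than in any lung, and Scgb1a1 is lowest in tumour replicate 2 at 160.5 CPM.

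The targeted receptor was measured as a human and a mouse transcript. The human EGFR transcript is carried by the tumour table, where it stood at 16.9, 13.6, 7.44 and 24.6 CPM in the 4 tumours, and its level in lung was not analysed here. Mouse Egfr had 10, 3.66, 8.02 and 9.68 CPM in tumours, against 30.5, 32.9, 24.7 and 29.9 CPM in lungs. All tumours lay below all lungs, with a difference of -1.93 ± 0.28 (adjusted p = 0.00016). Of 13 ErbB receptor and ligand genes tested, 6 rose, 3 fell and 4 missed the threshold. The median was 0.49, where 23.5% of all genes rose and 37.2% fell. With the mitochondrial genes in the total, 4 rose and the median was 0.08. Over all genes, 1715 of 14834 then rose, with a median of -0.48. Without tumour replicate 2, 4 ErbB genes rose and their median was 0.33, where 3334 of 14733 genes rose. The ligand gene Areg had 157, 119, 119 and 85.3 CPM in tumours, against 3.78, 2.38, 2.07 and 10.8 CPM in lungs. Ereg, which encodes epiregulin, had 137, 86.5, 97.6 and 54.6 CPM in tumours, against 0.997, 0.825, 1.35 and 1.31 CPM in lungs. The differences were 4.76 ± 0.41 for Areg and 5.80 ± 0.27 for Ereg, with no overlap for either. Epgn, the gene of the ligand epigen, named after its values were seen, had 1.24 to 2.6 CPM in tumours, against 0 to 0.0441 CPM in lungs. The receptor genes Erbb3 and Erbb2 rose by 1.19 ± 0.19 and 0.85 ± 0.14, and Erbb2 did not pass when all 24 libraries entered the fit (adjusted p = 0.108).

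Genes downstream of the MAPK cascade were called in both directions. Of 19 MAPK feedback and ETS genes, 11 rose, 5 fell and 3 missed the threshold. The median was 0.48, where 23.5% of all genes rose and 37.2% fell. With the mitochondrial genes in the total, 5 rose and 8 fell, and the median was 0.17. Over all genes, 1715 of 14834 then rose and 6669 fell, with a median of -0.48. Etv4, an ETS transcription factor gene, had 56.6, 85.3, 78 and 59.1 CPM in tumours, against 0.853, 0.333, 0.897 and 0.256 CPM in lungs. Its difference was 6.05 ± 0.26 (adjusted p = 5.52e-08), with every tumour above every lung. The related Etv5 rose by 0.77 ± 0.20 and did not pass with the mitochondrial genes in the total (adjusted p = 0.082). Dusp6, a phosphatase gene that restrains ERK, and Spry2, which encodes a feedback inhibitor, rose by 1.13 ± 0.14 and 1.19 ± 0.18, both named after their values were seen. Those that fell, also named after their values were seen, were Etv1 (-1.375), Egr1 (-1.275), Lrig1 (-1.203), Ier3 (-1.18) and Spry4 (-0.8145). Phlda1 had 271 to 411 CPM in tumours, against 87.1 to 119.9 CPM in lungs. Errfi1, which encodes an inhibitor of EGFR, rose by 1.07 ± 0.32 and did not pass with the mitochondrial genes in the total (adjusted p = 0.0684).

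Targets of the tumour suppressor p53 rose in 9 of 16 cases and fell in 2, where 23.5% of all genes rose and 37.2% fell. The cell cycle inhibitor gene Cdkn1a had 312, 332, 389 and 185 CPM in tumours, against 94.1, 83.3, 88.8 and 102 CPM in lungs. Bax, a cell death effector gene, rose by 1.56 ± 0.11 and Ccng1, the cyclin G1 gene, by 1.11 ± 0.13. Gdf15, a stress-induced cytokine gene named after its values were seen, had 13 to 21.3 CPM in tumours, against 1.1 to 1.57 CPM in lungs. Of 30 cell cycle genes, 1 rose, 2 fell and 27 missed the threshold; the median was 0.03, and -0.25 with the mitochondrial genes in the total. The DNA topoisomerase gene Top2a had 37.2, 38.9, 22.6 and 43.5 CPM in tumours, against 65, 52.9, 74.5 and 44.3 CPM in lungs.

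**Figure D4:**
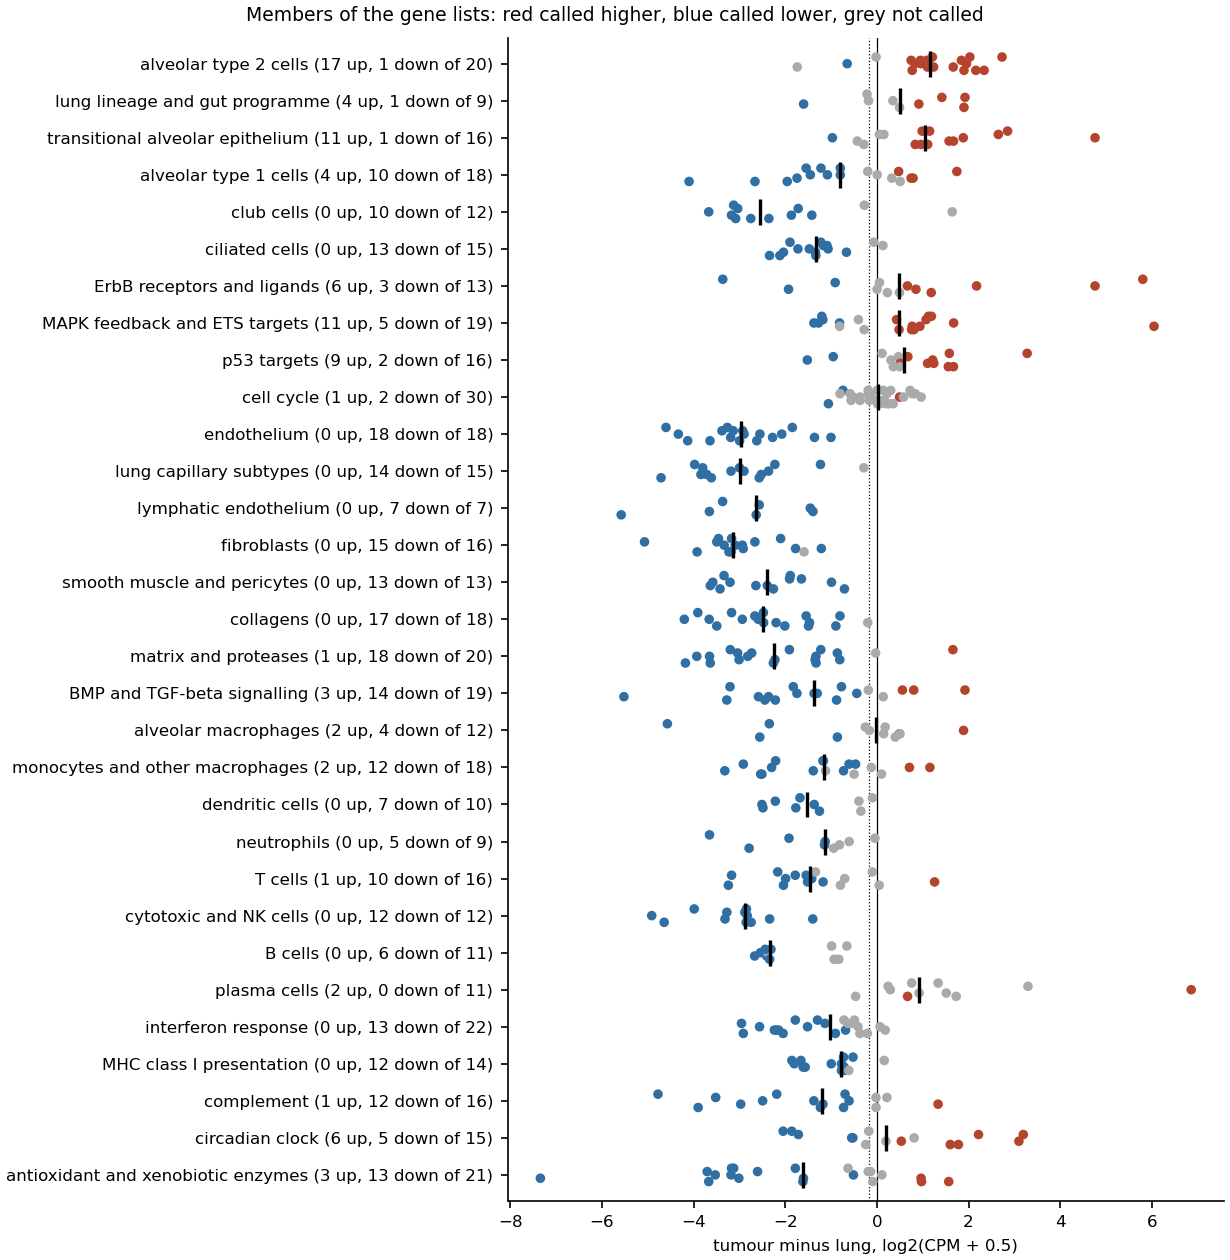
Difference between tumour and lung on the log2(CPM + 0.5) scale for every tested member of 31 gene lists; each point is a gene, black bars are list medians, the dotted line is the median of all genes at -0.18, and the row labels give the number that rose and fell of those tested. All 18 endothelial and all 12 cytotoxic cell genes fell, and 17 of the 20 alveolar type 2 genes rose.

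Endothelial genes fell as a whole. All 18 tested fell, where 37.2% of all genes fell, with a median of -2.96, as did 14 of 15 genes of lung capillary subtypes and all 7 of lymphatic endothelium. Cdh5, the endothelial cadherin gene, had 103, 65.6, 62.4 and 45.1 CPM in tumours, against 1176, 1230, 1324 and 962 CPM in lungs. Every tumour lay far below every lung, and the difference was -4.13 ± 0.22 (adjusted p = 1.99e-07). Pecam1, an adhesion gene of all endothelium, had 102 to 151 CPM in tumours, against 919.6 to 1247 CPM in lungs. Ptprb, an endothelial phosphatase gene, and Calcrl, an adrenomedullin receptor gene, fell by 4.33 ± 0.18 and 3.38 ± 0.20 on the log2 scale. The capillary gene Plvap had 25.1 to 65 CPM in tumours, against 832 to 1176 CPM in lungs, and Vwf, the von Willebrand factor gene, had 34.8 to 115 CPM in tumours, against 683 to 1254 CPM in lungs. In lymphatic endothelium, the growth factor receptor gene Flt4 fell by 3.66 ± 0.19 and the hyaluronan receptor gene Lyve1 by 5.58 ± 0.29 on the log2 scale. The summed endothelial list was 1327, 991, 1017 and 989 CPM in tumours, against 8557, 10144, 9273 and 7711 CPM in lungs.

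Mesenchymal and matrix genes were lower too, beside 37.2% of all genes that fell. Of 16 fibroblast genes 15 fell, with a median of -3.13, and all 13 smooth muscle and pericyte genes fell, with a median of -2.39. Inmt, a methyltransferase gene of lung fibroblasts, had 182, 105, 124 and 158 CPM in tumours, against 1032, 1833, 1012 and 1349 CPM in lungs. The pericyte genes Pdgfrb and Notch3 fell by 2.39 ± 0.23 and 3.58 ± 0.27 on the log2 scale. Of 18 collagen genes 17 fell. Col3a1, a fibrillar collagen gene, had 163, 59.8, 66.6 and 270.3 CPM in tumours, against 1366, 448, 1160 and 866 CPM in lungs, and the basement membrane gene Col4a1 had 324 to 612 CPM in tumours, against 935 to 1394 CPM in lungs. Of 20 matrix and protease genes, 18 fell and 1 rose. Eln, the elastin gene, had 131 to 516 CPM in tumours, against 731 to 2008 CPM in lungs, and Fn1, the fibronectin gene, had 38.3 to 109 CPM in tumours, against 391 to 771 CPM in lungs. Among BMP and TGF-beta pathway genes 14 of 19 fell and 3 rose. Acvrl1, a receptor gene of endothelium, fell by 3.28 ± 0.22 on the log2 scale, while the ligand gene Bmp4 had 262 to 335 CPM in tumours, against 66.8 to 90.7 CPM in lungs. Genes of mesothelium, the lung's outer lining, were low in tumours. Upk3b had 0.459, 0, 1.67 and 0.131 CPM in tumours, against 131, 62.2, 43.2 and 122 CPM in lungs, and Lrrn4 had 0.0656 to 0.372 CPM in tumours, against 10.9 to 42.3 CPM in lungs.

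Genes of cytotoxic lymphocytes were low in every tumour. All 12 cytotoxic and natural killer genes tested fell, where 37.2% of all genes fell, with a median of -2.87. Gzma, the granzyme A gene, had 1.94, 2.29, 4.32 and 2.87 CPM in tumours, against 104, 71.2, 149 and 37.7 CPM in lungs. Gzmb, another granzyme gene, fell by 4.92 ± 0.55 and the chemokine gene Ccl5 by 3.31 ± 0.49 on the log2 scale. Of 16 T cell genes, 10 fell, 1 rose and 5 did not pass. Cd8a, which encodes a chain of the CD8 co-receptor, had 2.17 to 4.35 CPM in tumours, against 14.9 to 59.2 CPM in lungs. Cd3e fell by 2.16 ± 0.59 on the log2 scale, whereas Cd3d, another chain gene of the same complex, rose by 1.26 ± 0.27 and did not pass when all 24 libraries entered the fit (adjusted p = 0.167). The B cell list summed to 249, 66.7, 77.7 and 1715 CPM in tumours, against 560, 485, 572 and 392 CPM in lungs. Tumour replicate 4 was above every lung and the other tumours were below them. Of 11 B cell genes 6 fell, and 10 with the mitochondrial genes in the total, where 6669 of 14834 genes fell. The plasma cell list summed to 5380, 1176, 901 and 24242 CPM in tumours, against 1084, 1545, 1152 and 699 CPM in lungs. Of its 11 genes 2 rose, near the 23.5% of all genes that rose. Ighg1, an antibody heavy chain gene, had 557, 72, 5.83 and 3493 CPM in tumours, against 1.04, 1.08, 2.64 and 0.139 CPM in lungs.

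Myeloid genes were divided, beside 37.2% of all genes that fell. Of 18 genes of monocytes and other macrophages, 12 fell and 2 rose. Csf1r, the receptor gene for macrophage growth factor, had 48.4, 26.8, 63.7 and 53.5 CPM in tumours, against 218, 218, 231 and 244 CPM in lungs, and its ligand gene Csf1 had 4.3 to 16.8 CPM in tumours, against 85.7 to 102 CPM in lungs. Ccr2, a monocyte chemokine receptor gene, fell by 2.51 ± 0.20 on the log2 scale, while Gpnmb, a gene of lipid-laden macrophages named after its values were seen, rose by 1.16 ± 0.29. Among 12 alveolar macrophage genes, 2 rose, 4 fell and 6 did not pass, near the 23.5% and 37.2% of all genes that rose and fell. The proton pump gene Atp6v0d2 had 73.7 to 98.5 CPM in tumours, against 18.9 to 26.9 CPM in lungs. The 4 alveolar macrophage genes that fell included Ear2 at -4.57 and Chil3 at -0.86. Chil3 did not pass when all 24 libraries entered the fit (limma adjusted p = 0.0628). Dendritic cell genes fell in 7 of 10 cases, among them the transcription factor gene Zbtb46 at -1.77 ± 0.13. Neutrophil genes fell in 5 of 9 cases, and in 2 when all 24 libraries entered the fit, where 30.1% of all genes fell. The neutrophil growth factor receptor gene Csf3r differed by -2.79 ± 0.40.

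Interferon response, antigen presentation and complement genes were called lower more often than higher. Of 22 interferon response genes 13 fell and none rose, where 37.2% of all genes fell. When all 24 libraries entered the fit, 8 of the 22 fell, against 30.1% of all genes. Gbp2, a guanylate-binding protein gene, fell by 2.96 ± 0.17 on the log2 scale. Of 14 class I presentation genes 12 fell, or 7 with all 24 libraries in the fit. B2m, the light chain gene of class I molecules, had 722, 402, 434 and 1203 CPM in tumours, against 2015, 2435, 2107 and 2177 CPM in lungs, and H2-K1 fell by 1.56 ± 0.24 on the log2 scale. Class II genes differed among themselves. H2-Aa had 1361, 1135, 814 and 1882 CPM in tumours, against 625, 676, 575 and 739.9 CPM in lungs, while H2-Eb1 had 28.3, 30.5, 32.2 and 43 CPM in tumours, against 567, 626, 536 and 587 CPM in lungs. H2-Aa did not pass with the mitochondrial genes in the total (adjusted p = 0.0708) or with all 24 libraries in the fit (adjusted p = 0.0917). Like H2-T23, these genes belong to a multigene locus, and the part of strain or read assignment in their differences was not tested. Of 16 complement genes 12 fell and 1 rose. The central component gene C3 had 72.3 to 264 CPM in tumours, against 748 to 1354 CPM in lungs, and Serping1, the C1 inhibitor gene, fell by 3.52 ± 0.35 on the log2 scale. Of 18 chemokine and cytokine genes tested, 4 rose, 7 fell and 7 did not pass, where 23.5% of all genes rose and 37.2% fell. Their median was -0.65. The cytokine gene Il18, named after its values were seen, had 33 to 41.4 CPM in tumours, against 6.17 to 12.7 CPM in lungs. The chemokine gene Ccl6 had 202 to 480.1 CPM in tumours, against 79.6 to 144 CPM in lungs.

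Among antioxidant and xenobiotic enzymes, 13 of 21 genes fell and 3 rose, where 37.2% of all genes fell and 23.5% rose. Cyp1a1, a cytochrome P450 gene induced through the aryl hydrocarbon receptor, had 0.804, 0.282, 0.744 and 0.721 CPM in tumours, against 37.5, 484, 129 and 454 CPM in lungs, the lungs varying widely among themselves. Fmo2 and Cyp4b1, oxidase genes of lung, fell by 3.53 ± 0.14 and 3.70 ± 0.33 on the log2 scale. Genes of cholesterol and fatty acid synthesis fell in 11 of 21 cases and rose in 5. The desaturase gene Scd1 had 478 to 886 CPM in tumours, against 2136 to 2653 CPM in lungs, while Acsl4, an acyl-CoA synthetase gene, rose by 1.24 ± 0.25. Of 21 hypoxia and glycolysis genes 6 rose and 9 fell, near the 23.5% and 37.2% of all genes. With the mitochondrial genes in the total 3 rose and 10 fell, where 1715 of 14834 genes rose and 6669 fell. Ldha, a lactate dehydrogenase gene, had 375 to 770.3 CPM in tumours, against 217 to 284 CPM in lungs. Nuclear genes of oxidative phosphorylation rose in 11 of 20 cases and fell in 3, or 8 and 5 with the mitochondrial genes in the total. The cytochrome oxidase gene Cox4i1 rose by 0.77 ± 0.12 and the succinate dehydrogenase gene Sdha fell by 1.09 ± 0.12 on the log2 scale.

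Of 15 clock genes, 6 rose, 5 fell and 4 missed the threshold, where 23.5% of all genes rose and 37.2% fell. The median was 0.20. With the mitochondrial genes in the total it was -0.11, against -0.48 for all genes. Per2, a repressor gene of the clock, had 155, 189, 238 and 216 CPM in tumours, against 30.4, 17.6, 20.8 and 23.3 CPM in lungs. Its relative Per3 and the output factor genes Tef and Dbp rose by 2.22 ± 0.19, 1.6 ± 0.25 and 3.20 ± 0.29. Arntl, an activator gene of the loop, had 20.7, 7.85, 12 and 6.83 CPM in tumours, against 42.6, 46.4, 47.3 and 48.5 CPM in lungs. Dbp and Arntl were named after their values were seen. The labels give no hour of sampling, and its part in these values was not tested.

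Leaving out pseudogenes and predicted or clone names, the genes with the largest differences came from several of these groups. Kng2, a kininogen gene, had 297, 155, 309 and 132 CPM in tumours, against 0.727, 0.772, 0.252 and 0.299 CPM in lungs. Fbp2 had 153, 132, 109.5 and 111 CPM in tumours, against 0.398, 0.207, 0.466 and 0.211 CPM in lungs. Their differences were 7.73 ± 0.31 and 7.27 ± 0.19, which depend on the pseudocount because the lung values lie near it. Tmem213, a transmembrane protein gene, Alkal1, which encodes a ligand of the ALK and LTK receptors, and Atp13a4, a transport ATPase gene, rose by 6.28 ± 0.23, 5.53 ± 0.23 and 5.05 ± 0.17. Lung means near the pseudocount also held for Tmem213 (0.442 CPM), Alkal1 (0.443 CPM) and Etv4 (0.585 CPM). The others among the 10 highest of these were Ereg, Etv4, Ighg1 and the near-copies Eno1b and Hmga1b. Among the 10 lowest, Slit3, which encodes a guidance cue, fell by 5.80 ± 0.19 and the matrix gene Spon2 by 5.98 ± 0.37 on the log2 scale. The uroplakin genes Upk3b and Upk1b differed by -6.50 ± 0.48 and -5.93 ± 0.43. Their tumour means of 0.566 and 0.47 CPM, and that of Cyp1a1 at 0.638 CPM, lie near the pseudocount too. The rest were Cyp1a1, Lyve1, H2-T23 and the near-copies H2-T22, Rps2 and Hba-a2. The haemoglobin gene Hba-a2 had 2.35 to 8.37 CPM in tumours, against 840.2 to 1123 CPM in lungs, and its twin Hba-a1 had 604 to 1104 CPM in tumours, against 610.1 to 838 CPM in lungs.

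The same difference was then compared between circuits, with 4 tumour and 4 lung libraries each. Against CMV-scrR, the difference between tumour and lung under CMV-GE11-siRE was tested for 15823 genes, of which 41.3% passed, 5917 higher and 616 lower (37.4% and 3.89%), with a median over all genes of 0.65. Median-of-ratios scaling gave 2840 higher and 2827 lower, including the mitochondrial genes gave 11610 higher and 62 lower, and leaving nuclear genes that match mitochondrial RNA out of the total gave 3372 higher and 2166 lower, with a median of 0.15. Against CMV-siRE the counts were 1650 higher and 32 lower (10.4% and 0.202%), with a median of 0.56. Median-of-ratios scaling gave 34 higher and 106 lower, and leaving out the nuclear genes that match mitochondrial RNA gave 2 higher and 3 lower. Leaving out 1 library moved the count against CMV-siRE by over 1.5 times for tumour replicates 1 and 3 of both circuits and for every lung replicate of both, from 16 calls without CMV-GE11-siRE tumour replicate 3 to 5166 without CMV-siRE tumour replicate 1. The mitochondrial share moved with the circuit, at 8.04% to 37.9% in CMV-GE11-siRE, 45% to 73.1% in CMV-siRE and 63.1% to 71.5% in CMV-scrR tumours, against at most 2.79% in the 12 lungs. Nuclear genes that match mitochondrial RNA took 1.48% to 9.79% of the CPM total in CMV-GE11-siRE, 13.7% to 45.7% in CMV-siRE and 24.2% to 45.5% in CMV-scrR tumours, against at most 0.425% in the lungs. The approximate depth outside the mitochondrial genome was 10.6 to 17.5 M reads in CMV-GE11-siRE tumours. It was 4.43 to 8.31 M in CMV-siRE and 4.48 to 4.62 M in CMV-scrR tumours. Genes above 0 numbered 18459 to 19919 in CMV-GE11-siRE, 15522 to 18004 in CMV-siRE and 15879 to 17076 in CMV-scrR tumours. Human EGFR stood at 7.44 to 24.6 CPM in CMV-GE11-siRE tumours and 61 to 168 CPM in CMV-siRE tumours, against 255 to 363 CPM in CMV-scrR tumours.

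Type 2 genes differed between CMV-GE11-siRE and CMV-scrR. Their difference between tumour and lung was higher under CMV-GE11-siRE for 18 of 20 genes and lower for none, with a median of 2.84. Over all genes, 37.4% were higher and the median was 0.65. With the mitochondrial-like genes out of the total, 15 were higher and the median was 2.24, where 3372 of 16008 genes were higher. Against CMV-siRE, 10 of the 20 type 2 genes were higher, where 10.4% of all genes were. That count was 0 with the mitochondrial-like genes out of the total and 0 by median of ratios. The list summed to 78772 to 116864 CPM in CMV-GE11-siRE tumours and 15246 to 114681 CPM in CMV-siRE tumours, against 7821 to 13858 CPM in CMV-scrR tumours, and to between 18634 and 32735 CPM in the lungs of the 3 circuits. With the mitochondrial-like genes out of the total, the sums were 81962 to 118618 CPM in CMV-GE11-siRE and 27360 to 132812 CPM in CMV-siRE tumours, against 10321 to 24847 CPM in CMV-scrR tumours, which then overlapped the 18680 to 24923 CPM of CMV-scrR lungs. Sftpc averaged 67767 CPM in tumour and 13372 CPM in lung under CMV-GE11-siRE, against 6680 CPM in tumour and 11533 CPM in lung under CMV-scrR. Nkx2-1 averaged 1033 CPM in tumour and 275 CPM in lung under CMV-GE11-siRE, against 147 CPM in tumour and 276 CPM in lung under CMV-scrR, or 1088 CPM in CMV-GE11-siRE tumours, against 248 CPM in CMV-scrR tumours, with the mitochondrial-like genes out of the total. Of 18 endothelial genes, 1 had a higher and 2 a lower difference against CMV-scrR, where 37.4% of all genes were higher and 3.89% lower. With the mitochondrial-like genes out of the total, 0 were higher and 6 lower, where 3372 and 2166 of 16008 genes were. With all mitochondrial genes in the total, 7 were higher and 1 lower, where 11610 and 62 of 15492 genes were. Cdh5 averaged 69.1 CPM in tumour and 1173 CPM in lung under CMV-GE11-siRE, against 106 CPM in tumour and 1271 CPM in lung under CMV-scrR (difference -0.17 ± 0.58, adjusted p = 0.846, or -0.77 ± 0.51 and 0.251 with the mitochondrial-like genes out of the total).

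**Figure D5:**
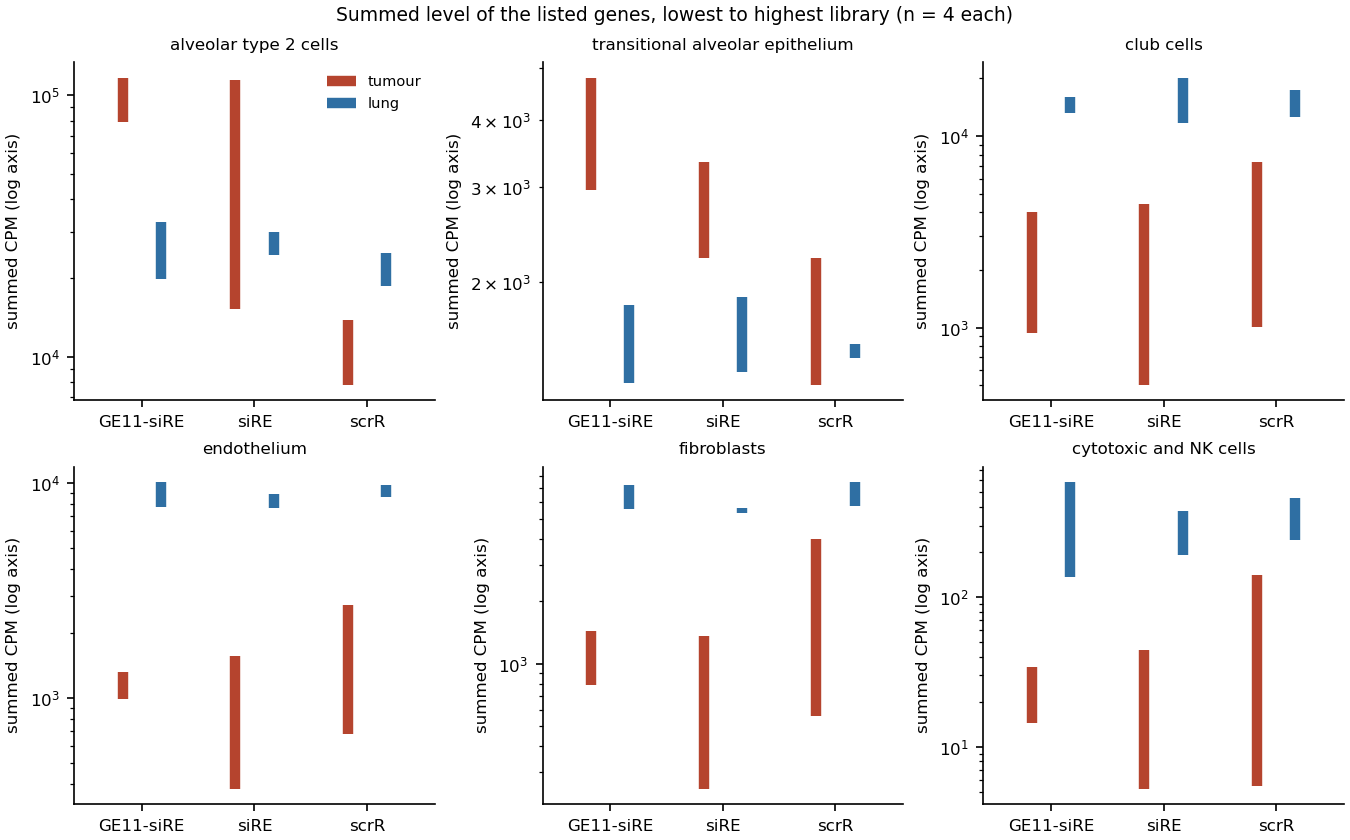
Summed CPM (log axis) of the listed genes for 6 lists, as bars from the lowest to the highest of 4 libraries, for tumour (red) and lung (blue) under each circuit. The alveolar type 2 sum is above the lungs in CMV-GE11-siRE tumours and, on this scale, below them in CMV-scrR tumours, whose CPM totals hold 24.2% to 45.5% of mitochondrial-like genes. The endothelial sums are below the lungs in the tumours of all 3 circuits.

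Among the single genes with the largest differences between CMV-GE11-siRE and CMV-scrR were Atp13a4, Aldh3b3, an aldehyde dehydrogenase gene, and Tle2 on the higher side. Atp13a4 averaged 192 CPM in tumour and 5.37 CPM in lung under CMV-GE11-siRE, against 2.8 CPM in tumour and 6.9 CPM in lung under CMV-scrR, a difference of 6.48 ± 1.06 (adjusted p = 0.00015). On the lower side were the albumin gene Alb, Ddah1, Nudt14, the prostaglandin dehydrogenase gene Hpgd and Erg. Nudt14, a nucleotide-sugar hydrolase gene, averaged 457 CPM in tumour and 45.9 CPM in lung under CMV-GE11-siRE, against 3992 CPM in tumour and 40.7 CPM in lung under CMV-scrR. Erg, an endothelial transcription factor gene, averaged 20.7 CPM in tumour and 157 CPM in lung under CMV-GE11-siRE, against 246 CPM in tumour and 154 CPM in lung under CMV-scrR. Alb averaged 0.623 CPM in tumour and 11.2 CPM in lung under CMV-GE11-siRE, against 34.4 CPM in tumour and 2.41 CPM in lung under CMV-scrR.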

How the data were processed

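RNA was extracted with TRIzol and libraries were made with a TruSeq kit, per the labels' protocols. The deposited values are a normalized signal per gene in one table a tissue, and what the values were divided by is not stated; DESeq2 is named in the submitters' processing notes with no role, and the aligner, the counter and the build were not given in the sources used here. Each column was rescaled to 1 M (CPM) over 36034 mouse genes, leaving out 13 mitochondrial genes. Gene names came from GENCODE M21 (35968 of 36047 IDs matched). Genes with at least 1 CPM in 4 libraries were tested with limma 3.58.1 in R 4.3.3 on log2(CPM + 0.5) with a mean-dependent prior. Near-identical copies were found with BLAST 2.17.0. Low values were whole multiples of 1 step, within 0.1 step, for 63.5% to 71.7% of values in the 8 libraries and for as few as 50.3% among the 24, so depths are approximate and no count test was run. The rule named the 10 highest and 10 lowest non-overlapping genes that passed and averaged at least 5 CPM in the higher group. It left out pseudogenes and predicted or clone names, and also named up to 4 abundant members per list. Of list members, those described kept their call with each library left out, apart from Myh6. For Ear2 and the MAPK feedback and ETS genes that fell, calls under the alternatives are not reported here. The members, gene lists and tests were chosen with earlier results of these data known. Alternatives were other pseudocounts, filters and scalings, array weights, all 24 libraries, a replicate block, copies or mitochondrial-like genes left out (the last 2 chosen after seeing the data), and each library left out. The fit was tested on simulated data. Some genes the rule names are not reported here.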

Additional observations from a re-analysis of the deposited data

Results flagged for a closer look

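A library was marked where its gap to the nearest of the other 3 in its group, divided by the group's range, was above Dixon's critical value. Of 377 groups of 4 examined, 24 had such a library, and chance gives about 1 in 20.

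Tumour replicate 2 held 71.77 CPM of Ddx3y, 92.36 CPM of Eif2s3y and 43.98 CPM of Kdm5d, all Y-linked, against 0.0674 to 1.36, 0.483 to 0.607 and 4.53 to 5.87 CPM in the other tumours. It also had the lowest club cell sum, at 936.3 CPM, against 3790 to 4002 CPM in the other tumours, and the lowest Cyp1a1, at 0.2825 CPM, against 0.721 to 0.804 CPM. Tumour replicate 4 had the highest Ighg1, at 3493 CPM, the highest B cell sum, at 1715 CPM, against 66.7 to 249 CPM in the others, and 35.48 CPM of the T cell kinase gene Lck, against 7.08 to 7.76 CPM. Its Hba-a1 stood at 1104 CPM, or 1110 CPM with Hba-a2, and its Atf4 at 333.8 CPM. Tumour replicate 1 had the highest endothelial sum, at 1327 CPM, against 989 to 1017 CPM in the others, 72.49 CPM of the water channel gene Aqp1, and 2.799 CPM of Spon2. Tumour replicate 3 had 1.774 CPM of Upk1b, 695.6 CPM of Tef and 236.3 CPM of Cox4i1.

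Among the lungs, replicate 4 had the lowest H2-K1, at 1732 CPM, against 2256 to 2310 CPM, and the lowest Irf1, an interferon response gene, at 150.9 CPM. It had 193.2 CPM of Acsl4, 0.04413 CPM of Epgn and 0.7924 CPM of Eif2s3y, the highest lung values of each. Lung replicate 2 had 269.7 CPM of the flow-responsive gene Klf2, against 152 to 169.7 CPM in the others. Lung replicate 3 had 324.6 CPM of Myh6, against 0.399 to 0.713 CPM in the others.

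The difference between tumour and lung itself differed between circuits for genes named by rule. Against CMV-scrR, on the log2 scale, it was higher under CMV-GE11-siRE by 6.482 for Atp13a4, 5.984 for Aldh3b3 and 5.052 for Tle2. It differed by -5.939 for Alb, -3.697 for Ddah1, -3.586 for Nudt14, -3.49 for Hpgd and -3.477 for Erg. Against CMV-siRE it was higher by 4.518 for Iglv1, 3.666 for Dzank1, 3.581 for Bglap3, 3.415 for Slc26a4 and 3.249 for Fam184a. It differed by -2.748 for Nudt14, -2.156 for Erg, -2.044 for Rhox8, -1.548 for Hecw2 and -1.483 for Ccdc184. With a replicate block, none of these 10 against CMV-siRE had an adjusted p under 0.05 in limma.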

How the results depend on the processing

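The count of genes that rose or fell between tumour and lung stayed within 1.5 times its value of 9091 under each alternative run: 9063 with a pseudocount of 0.1, 9107 with 1, 9716 with no filter, 7906 with at least 5 CPM, 9881 with array weights, 7407 with all 24 libraries and 7795 to 8966 leaving out 1 library. The last 2 of these and the filter change the samples or genes tested. Ear2 and the MAPK feedback and ETS genes that fell are left aside here. For the other named genes, the direction reversed for Cdh1, which was not called (-0.069 with the mitochondrial genes in the total, adjusted p = 0.794), and for no other. Cdh1 passed by median of ratios and with array weights. In all, 9 calls were lost with the mitochondrial genes in the total, 9 with all 24 libraries and 4 with no filter. The 7 calls lost on leaving out 1 library were all of Myh6. Deviations of same-numbered tumour and lung libraries had correlations of 0.01, 0.00, -0.16 and -0.25 for numbers 1 to 4. Such correlations between 2 tissues cannot show whether libraries came from the same animal. A replicate block gave 8618 calls. The difference in mitochondrial share was 18.2 points with the replicate block (exact permutation p = 0.125, the smallest that 4 pairs allow) and 12.4 to 22.4 points leaving out 1 library (p = 0.0571, the smallest allowed). Against CMV-scrR, the count of 6533 was 11672 with the mitochondrial genes in the total, 5538 with mitochondrial-like nuclear genes out of it, 5989 with the replicate block and 5855 to 6682 leaving out 1 library. Against CMV-siRE, the count of 1682 was 671 with no filter, 11228 with the mitochondrial genes in the total, 140 by median of ratios, 1 with the replicate block, 5 with mitochondrial-like nuclear genes out of the total, and 16 to 5166 leaving out 1 library. The cause was not tested. Genes near 1 CPM rest on few reads at these depths.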
